A study of Arabidopsis thaliana with 12 samples.

Results

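The 9 genes that make, release and export iron-mobilizing coumarins were followed through 12 RNA-seq libraries of wild-type Arabidopsis thaliana, accession Col-0. The genes were chosen by name and locus, with earlier results of these data known, and are 9 of the 33607 genes in the tables. Plants grew for 10 days on full ES medium and were then moved for 72 h either to full medium again (control) or to medium without Fe that held 100 µM FerroZine, a chelator of ferrous iron. Each medium gave 3 libraries of whole rosettes and 3 of roots, so that there are 4 groups, a control and a Fe-deficient one in each organ. The genotype, 1.5% sucrose, 25 seedlings per plate and constant illumination at 50 µmol per m2 per s were common to every group. The Fe-deficient groups differ from the controls both in the iron left out and in the chelator added. Whether the 3 libraries of a group came from separate plates is not given in the sources used here, so p-values measure the spread between these libraries, which may be technical. The deposited values behave as RPKM, reads per length of transcript and size of library, whose distribution appears equalised across the libraries of an organ; the unit is inferred from the values, and the depth is unknown.

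Coumarins of this pathway are made in roots from feruloyl-CoA, an intermediate of the phenylpropanoid pathway, and are secreted into the soil, where catechol-type coumarins such as fraxetin and sideretin reduce and chelate ferric iron. The transcription factor FIT governs much of the root iron deficiency response, and the R2R3 MYB factors MYB72 and MYB10 act beneath it. F6'H1 and its paralogue F6'H2 hydroxylate feruloyl-CoA, and COSY closes the lactone ring to give scopoletin. S8H then makes fraxetin, CYP82C4 makes sideretin, the beta-glucosidase BGLU42 frees coumarins from their glucosides, and the transporter ABCG37, also called PDR9, exports them.

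The members lie on 4 of the 5 nuclear chromosomes of the RefSeq TAIR10.1 reference. MYB72 (AT1G56160) is at chr1:21022384-21023587 on the plus strand and MYB10 (AT3G12820) at chr3:4073855-4075643 on the minus strand, each with 3 exons. F6'H1 (AT3G13610) is at chr3:4449259-4450811 on the plus strand and F6'H2 (AT1G55290) at chr1:20626029-20627513 on the minus strand, each with 2 exons. COSY (AT1G28680) is at chr1:10078189-10079909 on the plus strand. S8H (AT3G12900), at chr3:4104463-4106341 on the plus strand, starts 28820 bases from the start of MYB10, with 10 genes between them. CYP82C4 (AT4G31940) is at chr4:15451988-15454224 on the plus strand, BGLU42 (AT5G36890) at chr5:14541289-14546230 on the minus strand, and ABCG37 (AT3G53480), with 23 exons, at chr3:19825267-19831880 on the plus strand.

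Upstream sequence is shown for the pair of hydroxylase genes with the largest root rises, S8H and CYP82C4, and for the paralogues F6'H1 and F6'H2, of which one rose and the other did not pass the test. Each window holds the 250 bases before the annotated start in the RefSeq TAIR10.1 genome, written along the strand of the gene. The windows are chr3:4104213-4104462 on the plus strand for S8H, chr4:15451738-15451987 on the plus strand for CYP82C4, chr3:4449009-4449258 on the plus strand for F6'H1 and chr1:20627514-20627763 on the minus strand for F6'H2. Capitals mark ACCNACC on either strand, an AC element of the kind that R2R3 MYB factors bind, read here as GGTNGGT.
S8H: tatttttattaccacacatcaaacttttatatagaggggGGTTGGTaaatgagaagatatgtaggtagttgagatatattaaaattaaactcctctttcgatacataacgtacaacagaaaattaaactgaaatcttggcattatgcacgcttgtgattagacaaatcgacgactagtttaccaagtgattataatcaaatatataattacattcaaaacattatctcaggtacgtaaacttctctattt
CYP82C4: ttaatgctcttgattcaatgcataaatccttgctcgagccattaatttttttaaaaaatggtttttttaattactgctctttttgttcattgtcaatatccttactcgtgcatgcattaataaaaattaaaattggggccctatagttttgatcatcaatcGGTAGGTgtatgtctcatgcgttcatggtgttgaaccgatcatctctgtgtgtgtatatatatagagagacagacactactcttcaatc
F6'H1: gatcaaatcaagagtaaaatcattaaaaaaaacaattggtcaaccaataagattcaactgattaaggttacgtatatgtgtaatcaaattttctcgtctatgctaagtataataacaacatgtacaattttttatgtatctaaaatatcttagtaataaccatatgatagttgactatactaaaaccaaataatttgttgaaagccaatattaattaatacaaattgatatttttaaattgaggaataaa
F6'H2: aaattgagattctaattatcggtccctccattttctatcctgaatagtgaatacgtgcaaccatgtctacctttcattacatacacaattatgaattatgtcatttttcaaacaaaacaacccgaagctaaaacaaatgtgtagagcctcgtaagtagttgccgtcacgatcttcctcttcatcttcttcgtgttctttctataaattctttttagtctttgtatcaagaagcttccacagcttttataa
The AC element began 211 bases upstream of the start in S8H and 89 bases upstream in CYP82C4, and none of the other 7 members held it in this window, which for MYB72 ends at the coding start because no earlier start is annotated. It occurs in 6.10% of the 27437 such windows of the genome. CACGTG, the G-box, was in the window of 0 of 9 members against 6.49% of all windows, and CANNTG, the wider E-box that contains it, in 5 of 9 against 55.3%. A match is a description of letters, not a measured binding site.

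In Fe-deficient roots, transcript levels were higher at nearly every step of coumarin synthesis and secretion. Of the 9 members, 8 rose in Fe-deficient roots at an adjusted p under 0.05 (limma, Benjamini-Hochberg over the 19932 root genes tested), 0 fell, and F6'H2 did not pass. Among all root genes tested, 3.52% rose by the same rule. The same 8 members had no overlap between their groups of root libraries, as had 26.1% of all tested genes in either direction. The median log2 fold change of the members was 3.34, against -0.02 over all root genes tested. MYB72 and S8H passed the filter of a mean of 1 RPKM through the Fe-deficient group alone, so a difference was built into their being tested. In whole organs, more cells that express a gene and more RNA per cell cannot be told apart.

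**Figure D1:**
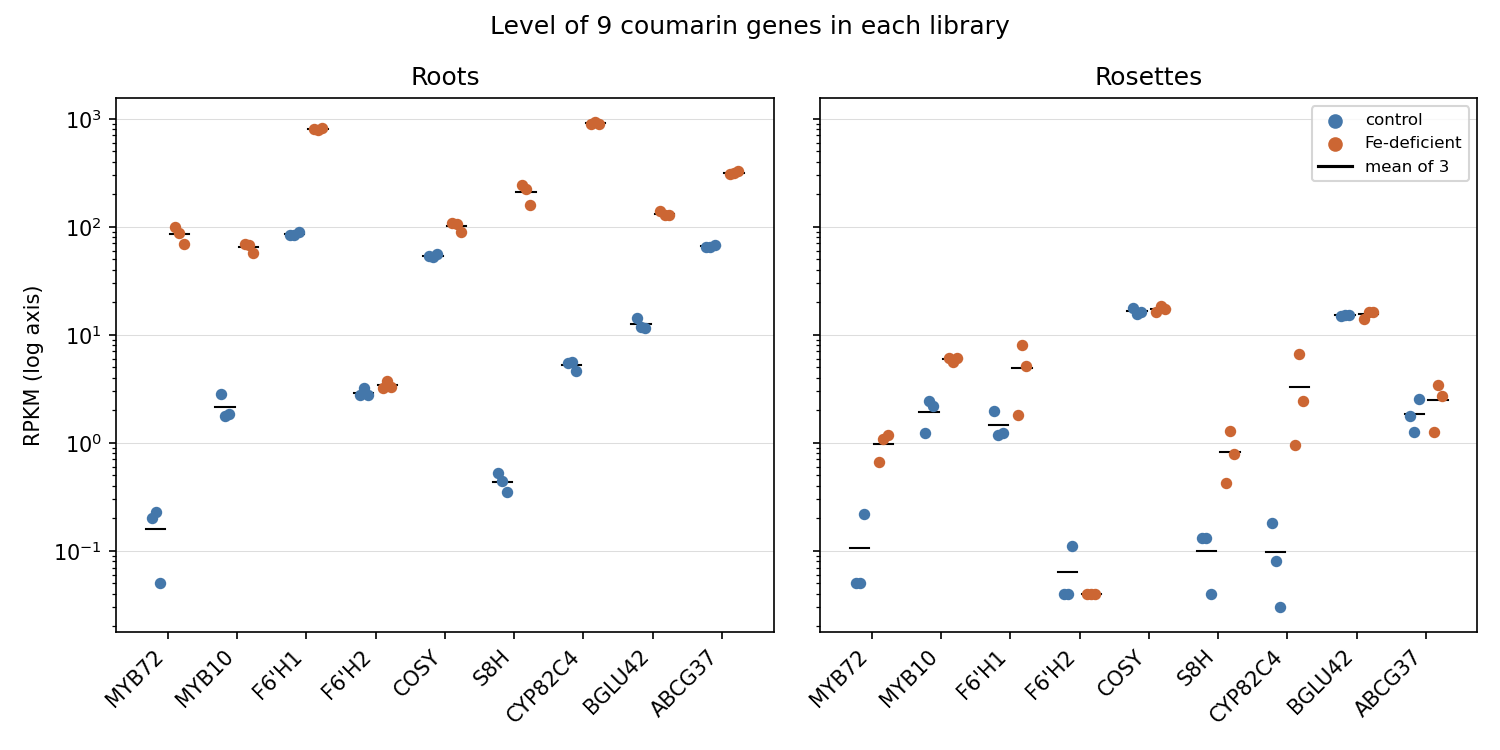
RPKM of each member in every library on a log axis, by organ and medium, with each point a library. The Fe-deficient root libraries stand above the control root libraries for every member except F6'H2, and the rosette libraries of CYP82C4, S8H and MYB72 stay under 7 RPKM.

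Both MYB regulators rose in Fe-deficient roots, MYB72 from near the lowest values listed. MYB72 was at 0.20, 0.23 and 0.05 RPKM in control roots 1 to 3, and at 99.5, 86.93 and 68.98 RPKM in Fe-deficient roots 1 to 3. The lowest control value equals the lowest the table lists for a transcript of that length. The groups did not overlap, and MYB72 had the third largest rise of all root genes tested on the log2(RPKM + 0.5) scale, a log2 fold change of 7.01 (SE 0.170, limma adjusted p 2.5e-06). MYB10, its close relative, was already detected in control roots, at 2.82, 1.77 and 1.83 RPKM, and stood at 69.47, 67.99 and 56.93 RPKM in Fe-deficient roots. The groups were far apart, and MYB10 rose by 4.65 on the log2 scale (SE 0.164, limma adjusted p 1.27e-05). MYB72 overlaps a long noncoding RNA gene on the opposite strand, AT1G56165, by 829 bases, and the strand use of the counting is not given in the sources used here. AT1G56165 itself averaged 0.397 RPKM in control and 0.547 RPKM in Fe-deficient roots. MYB10 overlaps AT3G12810, at 11.37 and 11.02 RPKM, by 340 bases on the opposite strand.

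The entry enzymes parted. F6'H1 was the most abundant member of control roots, at 83.38, 83.83 and 89.55 RPKM, and reached 802.2, 782.57 and 816.4 RPKM in Fe-deficient roots. All Fe-deficient libraries were far above all controls, and the ratio of the group means was 9.35 (log2 fold change 3.22, SE 0.0510, limma adjusted p 3.5e-07). F6'H2 was listed at 2.79, 3.19 and 2.77 RPKM in control roots and at 3.19, 3.77 and 3.28 RPKM in Fe-deficient roots. The groups meet at 3.19 RPKM, and the log2 fold change of 0.20 did not pass (95% interval -0.09 to 0.48, limma adjusted p 0.41). The level of F6'H1 over that of F6'H2 was therefore 26.3 to 32.3 in control roots and 208 to 251 in Fe-deficient roots. The transcripts share 76.3% of bases over 1092 aligned bases, and their longest identical run is 29 bases. F6'H1 also overlaps AT3G13620 by 67 bases on the opposite strand, a gene at 11.4 RPKM in control and 9.51 RPKM in Fe-deficient roots.

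COSY, which completes scopoletin, rose less than any other member called. It was at 53.33, 51.99 and 55.48 RPKM in control roots and at 107.86, 105.43 and 88.69 RPKM in Fe-deficient roots. The groups did not overlap, and the means differed by a ratio of 1.88 (log2 fold change 0.90, SE 0.0829, limma adjusted p 0.00136). The opposite-strand noncoding RNA gene AT1G28685 covers 1455 bases of COSY and averaged 1.06 and 1.17 RPKM in the same groups.

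The hydroxylases that turn scopoletin into catechol coumarins had the largest rises of all root genes tested on the log2(RPKM + 0.5) scale. S8H was at 0.52, 0.44 and 0.35 RPKM in control roots and at 242.95, 222.02 and 159.38 RPKM in Fe-deficient roots. Replicate 3 was the lowest of the Fe-deficient libraries, yet still far above every control, and S8H ranked first with a log2 fold change of 7.78 (SE 0.164, limma adjusted p 1.32e-06). CYP82C4, a cytochrome P450, was at 5.43, 5.64 and 4.60 RPKM in control roots and at 896.37, 927.49 and 896.37 RPKM in Fe-deficient roots. It ranked second, with a ratio of means of 174 (log2 fold change 7.31, SE 0.0773, limma adjusted p 1.27e-07). Fe-deficient replicates 1 and 3 tie exactly, as values do where distributions have been equalised across libraries, so the spread of such high values is narrowed. The ranking depends on the pseudocount. At 0.1 RPKM the log2 fold changes were 8.59 for S8H, 8.42 for MYB72, 7.67 for bHLH100 and 7.42 for CYP82C4. There MYB72 and bHLH100 stood above CYP82C4. At 1 RPKM those of S8H, MYB72 and CYP82C4 were 7.16, 6.20 and 7.19. This puts CYP82C4 above S8H, and bHLH100 (6.30) above MYB72. CYP82C4 has close paralogues, sharing 91.5% of 1757 aligned bases with CYP82C2 and a run of 97 identical bases with CYP82C3. Both paralogues were listed between 0.04 and 0.93 RPKM in every root library.

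Release and export rose as well. BGLU42 was at 14.37, 11.86 and 11.58 RPKM in control roots and at 141.32, 127.79 and 127.23 RPKM in Fe-deficient roots. The groups did not overlap, with a ratio of means of 10.5 (log2 fold change 3.34, SE 0.0940, limma adjusted p 4.6e-06). ABCG37 went from 64.99, 65.29 and 67.16 RPKM to 306.08, 313.21 and 325.55 RPKM, again with no overlap. Its ratio of means was 4.79 (log2 fold change 2.25, SE 0.0476, limma adjusted p 1.32e-06).

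The order of levels changed with iron. In control roots the order was F6'H1 (85.6 RPKM), ABCG37 (65.8), COSY (53.6), BGLU42 (12.6), CYP82C4 (5.22), F6'H2 (2.92), MYB10 (2.14), S8H (0.437) and MYB72 (0.16), each the mean RPKM of 3 libraries. Of these neighbours only F6'H2 and MYB10 overlapped in their ranges. In Fe-deficient roots CYP82C4 led at 907 ± 17.97 RPKM (SD, n = 3), followed by F6'H1 at 800.4 ± 16.99, ABCG37 at 315 ± 9.85, S8H at 208 ± 43.5 and BGLU42 at 132 ± 7.98 RPKM. COSY at 101 ± 10.4, MYB72 at 85.1 ± 15.3 and MYB10 at 64.8 ± 6.85 RPKM formed a run in which neighbours overlap, and F6'H2 was last at 3.41 ± 0.312 RPKM.

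Several genes of the steps that lead to feruloyl-CoA were also higher in Fe-deficient roots, 5 of them by more than COSY and each by less than the other members called. Of 13 phenylpropanoid genes listed, 12 were tested, 8 rose and 0 fell, while 3.52% of all root genes tested rose. The median log2 fold change was 0.69, against -0.02 over all root genes tested. Phenylalanine ammonia-lyase PAL2 rose by 1.92 on the log2 scale, from 107 ± 3.85 to 407 ± 12.3 RPKM (SD, n = 3), and PAL1 from 330 ± 8.83 to 817 ± 36.9 RPKM, by 1.31. The 4-coumarate-CoA ligases 4CL2 and 4CL1 rose by 1.89 and 1.68. HCT, which makes the shikimate esters that C3'H hydroxylates, rose by 1.03. C3'H, CSE and C4H rose by 0.74, 0.65 and 0.43, and C3'H lost its call without a filter on low values (limma adjusted p 0.0639). PAL4, 4CL3, 4CL5 and CCoAOMT1, the methyltransferase that gives feruloyl-CoA, did not pass. CCoAOMT1 was at 909 ± 112 and 1083 ± 19.6 RPKM (limma adjusted p 0.176). PAL3 was under the filter in roots.

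**Figure D2:**
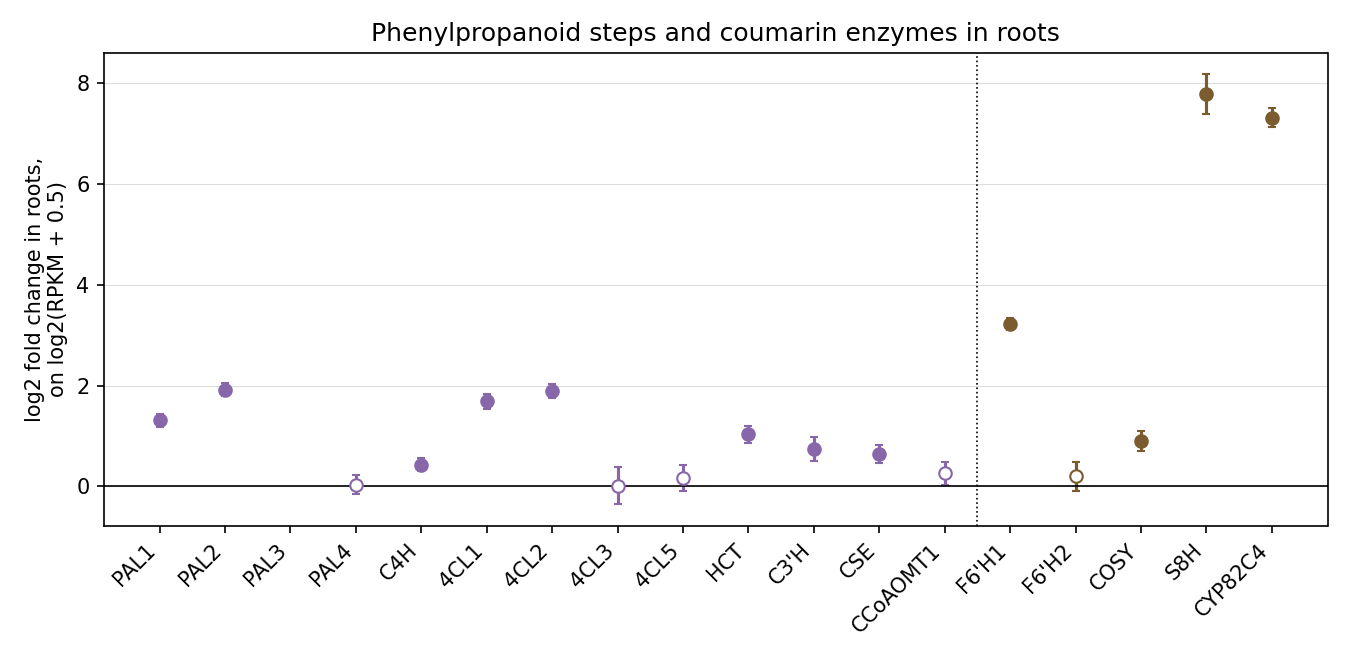
Log2 fold change on log2(RPKM + 0.5) in roots of the phenylpropanoid genes and 5 coumarin enzymes in pathway order, with 95% intervals as bars, filled points at an adjusted p under 0.05 and open points above it. S8H and CYP82C4 reach above 7, whereas the called phenylpropanoid genes lie between 0.43 and 1.92, and PAL3 has no point because it was under the filter.

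FIT, bHLH38, bHLH39, bHLH100, bHLH101 and the uptake genes IRT1, FRO2 and AHA2 all rose in roots, 8 of 8 beside 3.52% of all root genes tested. Their median log2 fold change was 5.22. Among them bHLH100 averaged 0.46 RPKM in control roots and passed the filter through the Fe-deficient group alone. A difference was thus built into its being tested. FIT itself was at 34.9 ± 2.76 RPKM in control and 146 ± 7.78 RPKM in Fe-deficient roots, a log2 fold change of 2.05. The transporter IRT1 and the ferric reductase FRO2 rose by 5.62 and 5.73. Of the nicotianamine synthases NAS4 and NAS2, reported targets of MYB10 and MYB72, NAS4 rose by 2.38, from 10.98 ± 0.793 to 59.3 ± 3.39 RPKM. NAS2 rose by 0.45 (limma adjusted p 0.0249), a call held in 5 of 14 alternative settings.

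Among related genes and other enzymes that act on glucosides, 1 rose in Fe-deficient roots. Of all root genes tested, 3.52% rose and 2.35% fell, so in lists this short 0 called is near those shares. UGT72E1, a glucosyltransferase of phenylpropanoids, rose from 20.6 ± 0.513 to 176 ± 17.6 RPKM (log2 fold change 3.06, limma adjusted p 3.47e-06), whereas UGT72E2 and UGT72E3 had log2 fold changes of 0.05 and -0.13 that did not pass. Of the other root beta-glucosidases BGLU21, BGLU22 and PYK10 and the BGLU42 relative BGLU41, 0 of 4 passed, with a lowest limma adjusted p of 0.103 and 1 gene at an unadjusted p under 0.05. PYK10 is listed at 2926.32 RPKM in all 6 root libraries, so its test says nothing about a change. Of 8 relatives of MYB72, CYP82C4 and ABCG37, 6 were tested and 0 passed, with a lowest limma adjusted p of 0.0868 and 1 gene at an unadjusted p under 0.05. Among them ABCG33, which shares a run of 35 identical bases with ABCG37, was at 15.5 ± 0.956 and 16.9 ± 0.538 RPKM.

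The root genes most like the members were sought by Euclidean distance between centred log2(RPKM + 0.5) values over the 6 root libraries. BHLH100, AT1G52120 and bHLH38 were, in that order, the nearest genes outside the 9 members to each of MYB72, S8H and CYP82C4, with distances from MYB72 of 0.49, 1.05 and 1.59. BHLH100, a bHLH factor of subgroup Ib, rose from 0.46 to 114 RPKM. Outside the members, F6'H1 was most like AT5G55620 (0.174), AT4G19370 (0.247) and CGLD27 (0.292). AT5G55620 is listed at 0.08 RPKM in all 3 control libraries, so its likeness rests on values near the lowest the table lists.

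Rosettes had 1 member that passed, the regulator MYB10. Of the 9 members, 6 were tested in rosettes, 1 rose, 0 fell and 3 were under the filter, while 0.679% of the 19006 rosette genes tested rose. At an unadjusted p under 0.05 there were 3. Among the 6 tested members, MYB10 and CYP82C4 had groups that did not overlap, 2 of 6 beside 21.4% of all rosette genes tested in either direction, and CYP82C4 passed the filter through the Fe-deficient group alone. The member that rose was MYB10, at 1.22, 2.42 and 2.17 RPKM in control rosettes and 6.13, 5.58 and 6.15 RPKM in Fe-deficient ones. AT3G12810, which covers 340 bases of MYB10 on the opposite strand, averaged 8.90 and 8.30 RPKM in these groups. Its part in the MYB10 values was not tested. The groups of MYB10 values did not overlap, and the log2 fold change of MYB10 was 1.44 (SE 0.208, limma adjusted p 0.0292). The call was lost without a filter on low values (0.119), and when any library but control replicate 1 was left out, with limma adjusted p of 0.0562 and 0.0892 for control replicates 2 and 3 and of 0.0776, 0.105 and 0.12 for the Fe-deficient replicates 1 to 3.

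Low-level transcripts of the pathway's dedicated genes were uneven between the Fe-deficient rosette libraries. CYP82C4 was at 0.18, 0.08 and 0.03 RPKM in control rosettes and at 0.95, 6.57 and 2.43 RPKM in Fe-deficient rosettes 1 to 3. The groups did not overlap, but the log2 fold change of 2.39 (SE 0.552) did not pass (limma adjusted p 0.113), and it did pass without Fe-deficient replicate 1 (0.0395). F6'H1 was at 1.98, 1.19 and 1.22 RPKM in control and 1.79, 7.98 and 5.13 RPKM in Fe-deficient rosettes. Its groups overlapped through Fe-deficient replicate 1, and the log2 fold change of 1.31 (95% interval 0.14 to 2.48) had a limma adjusted p of 0.266, or 0.0462 without that replicate. S8H was at 0.13, 0.13 and 0.04 RPKM in control and 0.42, 1.29 and 0.78 RPKM in Fe-deficient rosettes. MYB72 was at 0.05, 0.05 and 0.22 RPKM and then 0.67, 1.08 and 1.19 RPKM. Neither S8H nor MYB72 overlapped between groups, both were under the filter, and without a filter their log2 fold changes of 1.10 and 1.28 had limma adjusted p of 0.258 and 0.112. The opposite-strand gene AT1G56165 went from 0.493 to 1.82 RPKM in the same rosettes as MYB72, and its part in the MYB72 value was not tested.

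Of the other members, COSY, BGLU42 and ABCG37 did not pass in rosettes, and F6'H2 was barely listed. COSY was at 17.7, 15.63 and 16.25 RPKM in control and 16.08, 18.49 and 17.44 RPKM in Fe-deficient rosettes. BGLU42 was at 15.04, 15.17 and 15.23 RPKM in control and 14.04, 16.25 and 16.2 RPKM in Fe-deficient rosettes. Both pairs of groups overlapped, with log2 fold changes of 0.07 (95% interval -0.12 to 0.25, limma adjusted p 0.725) and 0.03 (-0.14 to 0.20, 0.886). ABCG37 was at 1.77, 1.26 and 2.56 RPKM, and at 1.27, 3.43 and 2.69 RPKM without iron, with a log2 fold change of 0.29 (95% interval -0.56 to 1.13, limma adjusted p 0.741). Its Fe-deficient replicates 2 and 3 were above every control, and replicate 1 lay within the range of the controls. F6'H2 stood at 0.04 RPKM in 5 of 6 rosette libraries, the lowest value listed for its length, and at 0.11 RPKM in control replicate 3, so no fold is given.

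**Figure D3:**
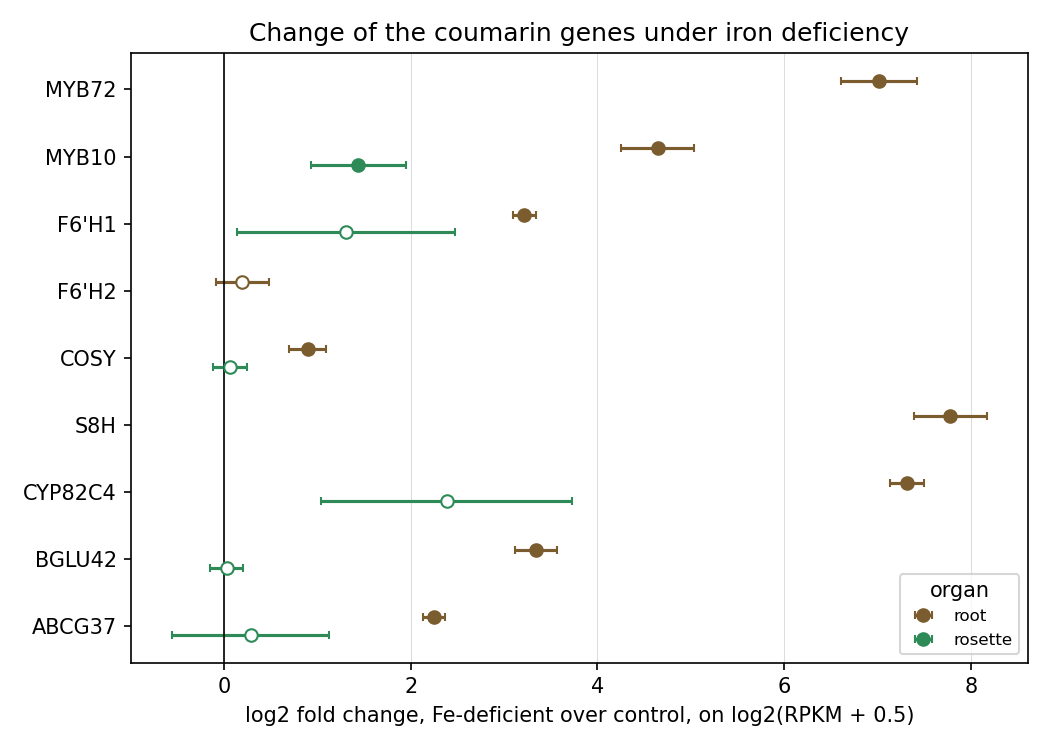
Log2 fold change on log2(RPKM + 0.5), Fe-deficient against control, of each member in roots and rosettes with 95% intervals as bars, filled points at an adjusted p under 0.05 and open points above it. The root changes lie to the positive side for 8 called members, while MYB10 is the called member in rosettes, and MYB72, F6'H2 and S8H have no rosette point because they were under the filter.

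Markers of root tissue were low in rosettes. Of 7 root markers, 6 were under the filter in rosettes, and their summed level was 6.34 to 10.38 RPKM in control and 7.86, 10.09 and 8.29 RPKM in Fe-deficient rosettes 1 to 3, against 358.53 to 469.78 RPKM in Fe-deficient roots. Among the Fe-deficient rosettes the sum was highest in replicate 2, as were CYP82C4, F6'H1, S8H, ABCG37 and, at 4.47, 8.31 and 6.12 RPKM, IRT1. The sum is mostly NRT2.1, and the other 6 markers summed to 2.19, 2.56 and 1.63 RPKM, lowest in replicate 3, whereas those 5 genes were lowest in replicate 1. Control replicate 1 had the highest sum of all rosette libraries, 10.38 RPKM with NRT2.1 and 3.79 RPKM without it. CYP82C4 and F6'H1 were highest among the control rosettes there, at 0.18 and 1.98 RPKM, whereas ABCG37 was highest in control replicate 3. Control roots averaged 5.22 RPKM of CYP82C4. BGLU21 and BGLU22, not called in roots, were at 2.82, 4.70 and 4.22 RPKM and at 1.32, 2.81 and 2.07 RPKM in Fe-deficient rosettes 1 to 3. Both were thus lowest in replicate 1 and highest in replicate 2. PYK10 was also lowest in replicate 1 but highest in replicate 3, and BGLU41 was highest in replicate 1. Replicate 2 was the highest Fe-deficient library for 5 of the 6 members tested and for 28.5% of all rosette genes tested. In Fe-deficient plants the rosette mean as a percent of the root mean was 0.366 for CYP82C4, 0.399 for S8H, 0.621 for F6'H1, 0.782 for ABCG37 and 1.15 for MYB72, across tables normalised separately. The root markers lay between 0.772 and 2.79 percent by the same measure. MYB10, BGLU42 and COSY lay above them, at 9.19, 11.7 and 17.2 percent. The part of root tissue or root transcripts in the rosette values was not tested.

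**Figure D4:**
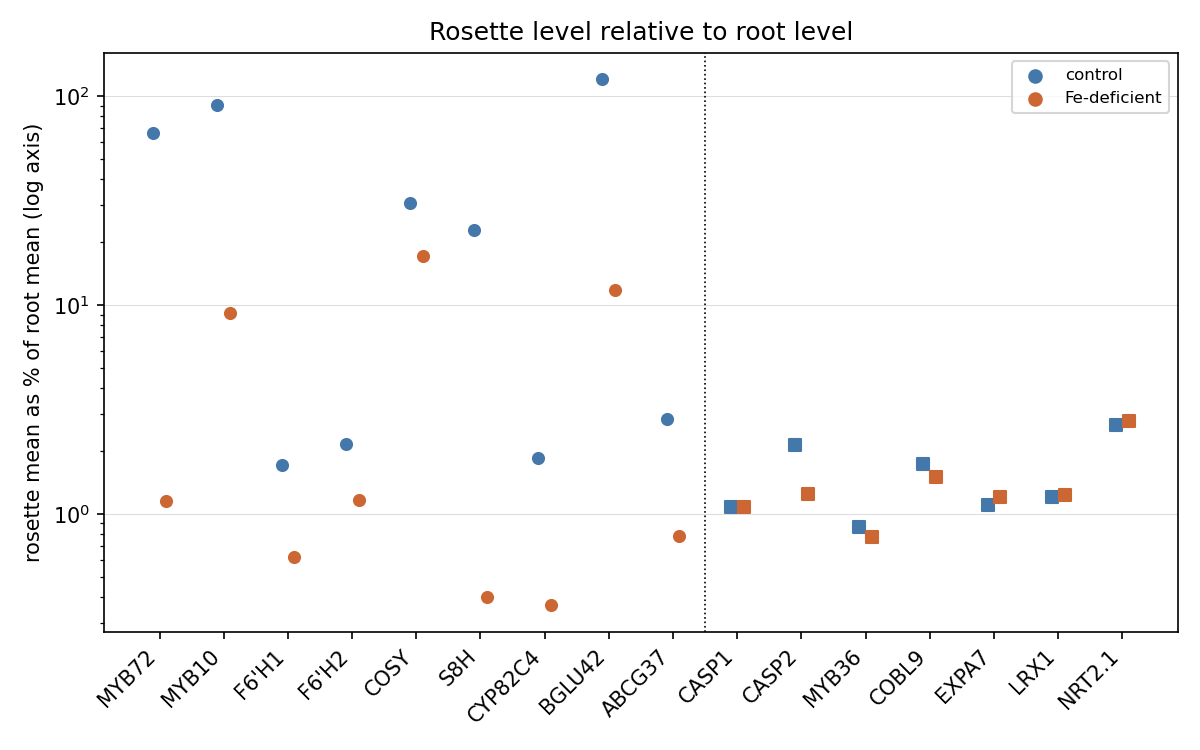
Mean rosette level as a percent of the mean root level on a log axis, for the 9 members (circles) and 7 root markers (squares) in control and Fe-deficient plants. In Fe-deficient plants CYP82C4, S8H and F6'H1 lie under the lowest marker at 0.772 percent, and MYB10, BGLU42 and COSY lie above the highest at 2.79 percent.

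The response differed between the organs for 5 of the 6 members tested in both, each with the more positive change in roots, as had 2.09% of the 17680 genes tested in both. Of these members, CYP82C4 passed the rosette filter through the Fe-deficient group alone. The difference of log2 fold changes, rosette minus root, was -4.92 for CYP82C4 (SE 0.557, adjusted p 0.00609), -3.31 for BGLU42 (SE 0.118, adjusted p 8.01e-09) and -3.20 for MYB10 (SE 0.265, adjusted p 1.97e-05), all from the limma fits of the organs. It was -1.96 for ABCG37 (SE 0.3495, limma-based adjusted p 0.0365) and -0.83 for COSY (SE 0.113, 0.000737). BGLU42 showed the contrast most plainly, with means of 12.6 RPKM in control roots and 15.1 RPKM in control rosettes, from tables normalised separately, and of 132 and 15.5 RPKM without iron. The difference of F6'H1, -1.91 (SE 0.484), did not pass (limma-based adjusted p 0.115), though it did in one fit of all 12 libraries (0.0274). MYB72 and S8H were under the filter in rosettes. Without a filter their differences were -5.73 and -6.68 (limma-based adjusted p 1.42e-05 and 4.91e-05). The size of the CYP82C4 difference depends on the pseudocount. With 0.1 its rosette log2 fold change was 3.80 and the difference -3.62, which lost its call (limma-based adjusted p 0.0546). The CYP82C4 call was also lost with no filter (0.0502). The difference of ABCG37 was called in 12 of 19 alternative settings. Calls lost included those without rosette control replicates 1, 2 and 3 (0.113, 0.0613 and 0.105) and rosette Fe-deficient replicate 3 (0.0892).

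Around the pathway, the bHLH factors, IRT1 and FRO2 rose in rosettes, while AHA2 (limma adjusted p 0.625) and the phenylpropanoid genes did not pass there. FIT was under the filter in rosettes, at 0.39 to 1.48 RPKM in control and 0.72 to 1.27 RPKM in Fe-deficient libraries. Of the 7 tested genes of the same list, 6 rose there, beside 0.679% of all rosette genes tested. They were bHLH38, bHLH39, bHLH100, bHLH101, IRT1 and FRO2, with log2 fold changes from 2.96 to 9.17. Their control means were 0.0967 to 0.803 RPKM, so each passed the filter through the Fe-deficient group alone. In Fe-deficient plants the rosette means of IRT1 and FRO2 were 0.722 and 1.24 percent of their root means, across tables normalised separately. The part of root tissue in these values was not tested. Of the 13 phenylpropanoid genes tested in rosettes, 0 passed, with a lowest limma adjusted p of 0.124 and 4 genes at an unadjusted p under 0.05, and their median log2 fold change was 0.09. UGT72E1 was at 40.8 ± 4.33 and 42.0 ± 6.08 RPKM in rosettes (limma adjusted p 0.913). NAS4 rose in rosettes too, from 18.0 ± 2.09 to 113 ± 16.0 RPKM, by 2.61. Whether the changes of these genes differ between organs was not tested here.

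In the authors' deposited table the root log2 fold changes were 9.05 for MYB72, 8.9 for S8H, 7.44 for CYP82C4, 4.92 for MYB10, 3.39 for BGLU42, 3.23 for F6'H1, 2.26 for ABCG37, 0.91 for COSY and 0.23 for F6'H2. The p-value in the authors' deposited table is listed as 0 for the 8 members called here in roots and as 0.84 for F6'H2. For rosettes the authors' deposited table gives 0.15 for MYB10 and 0.08 for CYP82C4, and no member under 0.05.

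Library checks touched these results at few points. Replicates correlated at 0.9791 to 0.9862 in roots and 0.9771 to 0.988 in rosettes over log2 values of tested genes, and no pair of libraries of an organ shared more than 1.44% identical values. The RNA integrity number was 9.8 to 10 for roots and 8.3 to 8.7 for rosettes, per the labels. The 7 root markers in roots did not pass (0 of 7, lowest limma adjusted p 0.0656, 1 at an unadjusted p under 0.05), and all were present. The 5 rosette markers summed to 168.64 to 178.33 RPKM in control roots and 116.93 to 150.43 RPKM in Fe-deficient roots. There 2 of 5 fell, RBCS1A and RCA, beside 2.35% of all root genes tested. At an unadjusted p under 0.05 (limma) there were 4 of the 5. The part of this shift in the root results was not tested.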

How the data were processed

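Polyadenylated RNA was sequenced in 12 libraries. The authors deposited a table per organ, whose values behave as RPKM: the unit is inferred from the values, the table's name mentions TMM, and ties are such as arise when distributions are equalised across the 6 libraries of a table. The deposited tables also hold the authors' p-value (a Z-test per the file headers) and log2 fold change. The submitters' processing notes list TAIR10, bcl2fastq 1.8.4, Trimmomatic 0.35, Bowtie2 2.0.6, edgeR 3.12.1 and limma 3.26.9, without a role or order. Read counting, strand and annotation are not given in the sources used here, and depth is unknown, so no counting interval is given. Of 33611 rows, 4 transgene rows were left out.

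Within an organ, genes whose 6 libraries averaged 1 RPKM or more were compared as log2(RPKM + 0.5) with limma 3.58.1 in R 4.3.3 (eBayes with a trend, two-sided), adjusted by Benjamini-Hochberg over all tested genes and called under 0.05. Such fold changes understate those of low genes. Organ differences used the difference of both log2 fold changes, the summed squared standard errors and Satterthwaite degrees of freedom. Exact permutation of 3 against 3 libraries cannot go below 0.1, so none is given. Code was tested on simulated data. Positions and upstream bases came from RefSeq TAIR10.1, identities from BLAST 2.17.0; 32835 of 33607 locus identifiers were in the reference. COSY and S8H were named by locus. Named genes were the 9 members, up to 5 called genes of each list with the largest changes, close relatives, and the 3 nearest genes by profile; other genes of short lists were named after their values were seen. The members and lists were chosen with earlier results of these data known. Overlap, identity and lowest-value measures were set after the tables were seen.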

Additional observations from a re-analysis of the deposited data

Results flagged for a closer look

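For 5 members the change in rosettes differed from that in roots by a test of the difference itself. In each case the change was more positive in roots, as for 2.09% of the 17680 genes tested in both organs. The difference of log2 fold changes, rosette minus root, was -3.20 for MYB10, -0.83 for COSY, -4.92 for CYP82C4, -3.31 for BGLU42 and -1.96 for ABCG37. The adjusted p from the limma fits was 1.97e-05, 0.000737, 0.00609, 8.01e-09 and 0.0365 in that order. CYP82C4 passed the rosette filter through the Fe-deficient group alone. Its call was lost with 0.1 as the pseudocount or with no filter. The call of ABCG37 was held in 12 of 19 alternative settings.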

How the results depend on the processing

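All 8 root members were called under each of the 14 alternatives run. The count of changed root genes, 1170, was 692 without a filter on low values and 523 to 971 when 1 library was left out, with the lowest without control replicate 2. The count in rosettes, 372, was 559 with array weights, 562 in one fit of all 12 libraries and 167 to 330 with 1 library left out. Of the rosette members, 1 as reported, 0 were called without a filter or with a filter at 5 RPKM, where MYB10 was no longer tested, 2 in the one fit (MYB10 and CYP82C4, 0.0103) and 0 to 2 with 1 library left out. Genes differing between organs, 616, were 1003 in the one fit and 441 to 661 with 1 library left out, and members differing, 5, were 3 at a pseudocount of 0.1, 6 in the one fit, where F6'H1 was called (0.0274), 2 with a filter at 5 RPKM, where COSY and BGLU42 alone were tested, and 4 to 5 with 1 library left out. The cause was not tested in the other cases. No called result changed sign under the alternatives run.

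Leaving out a library kept the genes that passed the filter in all 6 libraries, a choice made after the counts had been seen. With the filter applied to the 5 libraries left, the counts ran from 550 to 988 in roots, 170 to 325 in rosettes and 436 to 664 for the organ difference.

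Whether replicate numbers pair the libraries could not be decided from 3 libraries per group. Same-numbered control and Fe-deficient libraries had correlations of deviations of -0.003, 0.006 and 0.103 in roots and 0.088, -0.16 and 0.247 in rosettes. Differently numbered ones ran from -0.087 to 0.084 in roots and from -0.309 to 0.244 in rosettes. With a replicate block, 188 rosette genes and 0 rosette members were called, MYB10 having a limma adjusted p of 0.0944, NAS2 in roots was not called (0.0627), and neither was the organ difference of ABCG37 (0.0644).

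Depth is unknown, and values near the lowest a table lists limit the rosette levels of MYB72, F6'H2, S8H and CYP82C4 most.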
